A study of Mus musculus with 8 samples.

Results

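From the 55487 genes in the deposited table, 9 genes of the sarcomere were described across 8 mice. They encode the giant proteins titin (Ttn) and nebulin (Neb), the Z-disc proteins alpha-actinin-2 (Actn2) and alpha-actinin-3 (Actn3), the M-band proteins myomesin-1 (Myom1), M-protein (Myom2) and myomesin-3 (Myom3), and the slow-type and fast-type forms of myosin-binding protein C (Mybpc1 and Mybpc2). The genes were taken by name, through the Ensembl gene identifiers of the table, and not by their values, although earlier results of these data were known. All 9 were found, and all 9 had at least 10 counts in every library.

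The 8 animals formed 1 group of male C57BL/6J mice aged 10 weeks. Both hindlimbs had been immobilized in casts for 8 days, a treatment that causes disuse atrophy of the muscle. During this time K14Q MOTS-c was injected intraperitoneally 2 times a day, for a dose of 15 mg/kg/day. MOTS-c is a microprotein encoded in mitochondrial DNA, and K14Q is a naturally occurring variant of it with a single amino acid exchanged. Poly-A RNA of whole muscle was sequenced on an Illumina NextSeq. The study's methods name gastrocnemius as the muscle, whereas the sample labels name vastus lateralis. Libraries of control mice and of mice given WT MOTS-c were not analysed here. The comparisons are therefore between genes within a mouse and between mice of the same treatment, and no effect of casting or of the peptide was measured.

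A sarcomere is the contractile unit of the muscle fibre and runs from one Z-disc to the next. Alpha-actinin cross-links the thin actin filaments at the Z-disc, nebulin runs along the thin filament, and titin reaches from the Z-disc to the M-band in the middle of the sarcomere. At the M-band, myomesins link titin to the thick myosin filaments, and myosin-binding protein C sits in cross-stripes along those filaments. Several of these families hold members that fibres of different types use to different degrees: alpha-actinin-3 and fast-type myosin-binding protein C are known for fast fibres, and myomesin-3 for fibres of intermediate speed.

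The libraries held between 23985356 and 33012497 counts, and the authors' size factors ran from 0.906 to 1.20. Values below are normalized counts, which are read counts divided by the size factor of the library. Markers of skeletal muscle fibres (Ckm, Acta1, Tnnt3, Pvalb and Mylpf) were present in all mice, with a summed level of 627992 in mouse 3 to 1124051 in mouse 8. Of the 4 heart markers, 2 had at least 10 counts in every library. Their summed level ran from 767 in mouse 3 to 1912 in mouse 1, and Myh6 alone had 738 to 1620 counts, whereas Nppa had at most 1 count in a library and Tnni3 at most 11. Tendon markers (Tnmd, Fmod, Scx and Thbs4) summed to between 881 in mouse 8 and 5957 in mouse 1. No 2 libraries were copies of each other: in the 28 pairs, chi-square divided by its degrees of freedom was at least 15.0. The p-values below measure the spread between mice. For ratios between genes they do not cover the choice of gene length, and some ratios passed in opposite directions with different lengths. In whole muscle, fewer fibres of a type and less RNA per fibre cannot be told apart.

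Titin and nebulin were the most abundant of the 9 genes by count. Ttn (ENSMUSG00000051747, chr2:76703980-76982547 on the minus strand of GRCm38) had a normalized count of 337871 in mouse 3, a median of 471000 and 690978 in mouse 1, with a mean of 482373 ± 118508 (SD, n = 8). Neb (ENSMUSG00000026950, chr2:52136647-52378474, minus strand) had 240752 in mouse 8, a median of 437218 and 516905 in mouse 1, with a mean of 415353 ± 90738 (SD, n = 8). Mouse 1 was highest for both genes, and mice 3 and 8 were the lowest pair for both. They ranked 7 and 10 among all genes by mean normalized count. Together they took 3.03% ± 0.592 (SD, n = 8) of all counts, against 4.45% ± 0.655 (SD, n = 8) for the 9 genes in sum. Both are long, with a union of exons of 116825 bases for Ttn and 26582 bases for Neb. Both genes overlap an antisense gene (Gm13938 and Gm13522) that had at most 2 counts in a library.

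The alpha-actinin genes differed in level. Actn3 (ENSMUSG00000006457, chr19:4861216-4877909, minus strand) had 101166 normalized counts in mouse 3, a median of 173939 and 245974 in mouse 1, with a mean of 165227 ± 50083 (SD, n = 8). Actn2 (ENSMUSG00000052374, chr13:12269426-12340760, minus strand) had 16052 in mouse 2, a median of 19472 and 38825 in mouse 5, with a mean of 22146 ± 7369 (SD, n = 8). Mouse 5 stood well above the next highest mouse for Actn2, which had 25941, while the same animal was below the median for Actn3. The ranges of the genes did not overlap. Without mouse 5 the coefficient of variation (CV, SD as a percent of the mean) of Actn2 was 16.3% in place of 33.3%. The other alpha-actinin genes, whose products serve the cytoskeleton of many cell types, were low, with mean normalized counts of 272 ± 40.1 (SD, n = 8) for Actn1 and 943 ± 128 (SD, n = 8) for Actn4.

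Because reads from a stretch shared by paralogs could be counted for either, the transcripts of the 9 genes were compared. The longest run of identical bases was between Actn2 and Actn3, at 51 bases, and in the other 35 pairs it was between 12 and 21 bases. The shared run lies in exon 10 of each transcript and is coding in both. It is shown with 20 bases on either side to let the actinin paralogs be compared, with the identical bases in capitals, read 5′ to 3′ on the transcript strand. It covers chr13:12291714-12291764 for Actn2 and chr19:4867867-4867917 for Actn3 (GRCm38, both minus strand).
Actn2: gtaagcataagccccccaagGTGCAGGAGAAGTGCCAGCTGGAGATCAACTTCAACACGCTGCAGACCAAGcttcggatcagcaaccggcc
Actn3: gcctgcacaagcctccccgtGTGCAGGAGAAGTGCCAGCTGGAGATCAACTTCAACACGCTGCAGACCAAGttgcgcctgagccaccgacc
The flanking bases differ at several positions, so that a read reaching out of the run would not match both genes exactly. How reads that match several genes were counted is not given in the sources used here.

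Of the M-band genes, Myom1 and Myom2 were abundant and Myom3 was low. Myom1 (ENSMUSG00000024049, chr17:71002633-71126856, plus strand) had 57104 normalized counts in mouse 3, a median of 72423 and 86232 in mouse 1, with a mean of 70384 ± 9675 (SD, n = 8). Myom2 (ENSMUSG00000031461, chr8:15057653-15133541, plus strand) had 34050 in mouse 2, a median of 42803 and 57930 in mouse 5, with a mean of 44484 ± 7534 (SD, n = 8). Myom3 (ENSMUSG00000037139, chr4:135759715-135815564, plus strand) had 641 in mouse 2, a median of 1058 and 1499 in mouse 5, with a mean of 1097 ± 252 (SD, n = 8). Mouse 2 was lowest and mouse 5 highest for both Myom2 and Myom3, whereas Myom1 was lowest in mouse 3 and highest in mouse 1. Myom1 and Myom2 ranked 47 and 65 by mean, and Myom3 ranked 3245. Even so, Myom3 had at least 593 counts in every library. Exons of Myom1 overlap those of Myl12a, a myosin light chain gene on the opposite strand, over 207 bases, or 1.98% of its exon bases. Myl12a had between 7665 and 23990 counts, and whether the counting used strand is not given in the sources used here.

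The genes of myosin-binding protein C were close to opposite ends of the range of variation. Mybpc2 (ENSMUSG00000038670, chr7:44501699-44524656, minus strand) had 54105 normalized counts in mouse 3, a median of 89895 and 133506 in mouse 1, with a mean of 90293 ± 28994 (SD, n = 8) and a CV of 32.1%. Mybpc1 (ENSMUSG00000020061, chr10:88518279-88605152, minus strand) had 25962 in mouse 2, a median of 30855 and 37543 in mouse 5, with a mean of 31659 ± 3686 (SD, n = 8) and a CV of 11.6%. No mouse had more Mybpc1 than Mybpc2. Mybpc1 thus had the lowest CV of the 9 genes, and its lowest and highest mice were those of Myom2 and Myom3. The cardiac form Mybpc3 had at most 2 counts in a library. The related gene Mybph had a mean normalized count of 504 ± 274 (SD, n = 8), whereas Mybphl was at 0 counts in all 8 libraries, where a count of 0 allows up to 3 counts in a library, or 1.25e-05% of the shallowest one. Such limits cover counting error only.

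**Figure D1:**
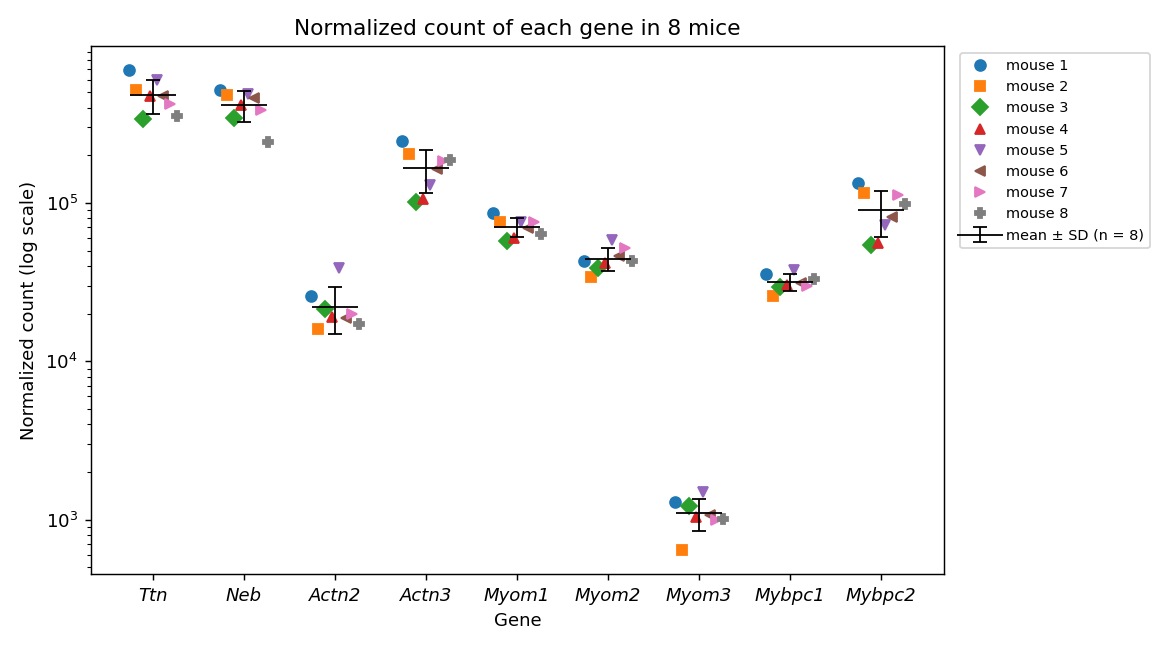
Normalized count (log axis) of each gene (x axis) in the 8 mice, with a symbol per mouse and the mean ± SD as a black bar. Ttn and Neb lie at the top with means of 482373 and 415353, Myom3 lies at the bottom with 1097, and mouse 5 stands apart for Actn2 at 38825.

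Over the 9 genes the CV ran from 11.6% for Mybpc1 to 33.3% for Actn2, with a median of 23.0%. For the 15135 genes that reached 10 counts in each of the libraries the median CV was 15.6%, and the quartiles were 11.0% and 22.3%. Actn2, Mybpc2, Actn3 (30.3%), Ttn (24.6%) and Myom3 lay above the upper quartile of all genes. Neb (21.8%), Myom2 (16.9%) and Myom1 (13.7%) lay between the quartiles, as did Mybpc1. Without mouse 8, the CV of Neb was 13.998%. With library totals in place of size factors, the CV of Myom1 was 7.07%.

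To compare the genes with each other, the normalized count was divided by the length of the union of exons, and the result is the normalized count per kilobase (kb). On this scale Actn3 was highest with 56955 ± 17264 per kb (SD, n = 8), followed by Mybpc2 with 25005 ± 8029 per kb and Neb with 15625 ± 3413 per kb. Titin, which led by count, came next to last with 4129 ± 1014 per kb, and Myom3 was last with 182 ± 41.8 per kb. Between these stood Mybpc1 with 6993 ± 814 per kb, Myom1 with 6730 ± 925 per kb, Actn2 with 5836 ± 1942 per kb and Myom2 with 5025 ± 851 per kb.

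**Figure D2:**
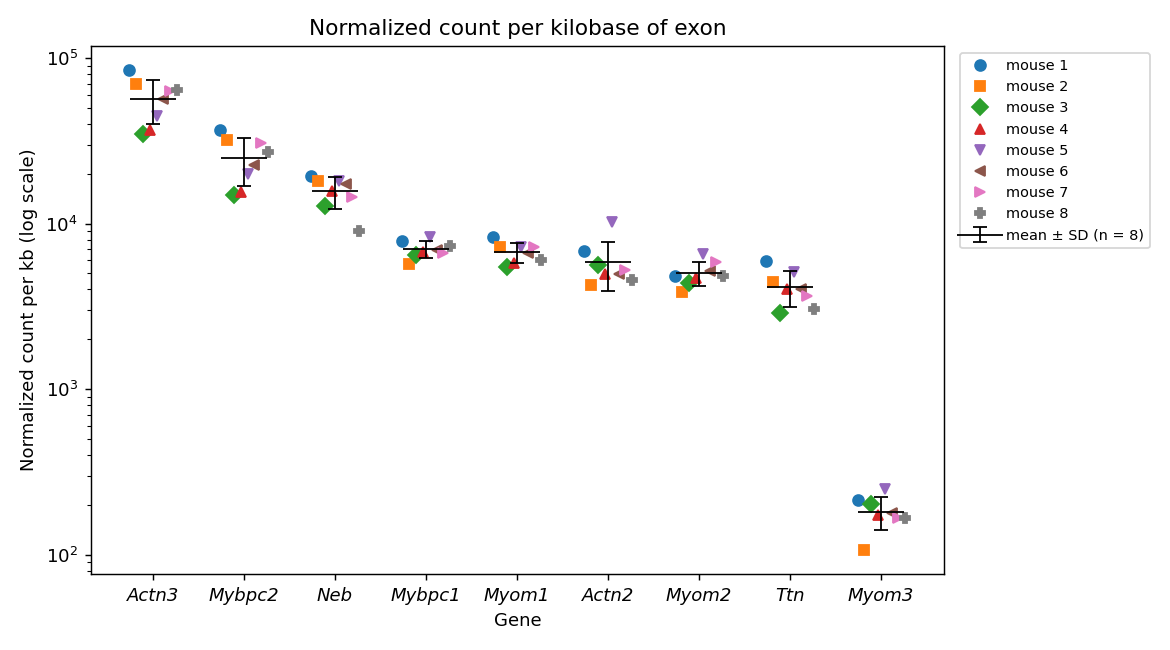
Normalized count per kb of exon (log axis) of each gene (x axis, ordered by the mean) in the 8 mice, with a symbol per mouse and the mean ± SD as a black bar. Actn3, Mybpc2 and Neb lead with means of 56955, 25005 and 15625 per kb, Mybpc1, Myom1, Actn2, Myom2 and Ttn lie close together, and Myom3 lies far below at 182.

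Each gene was then tested against its neighbour in this order by the log2 ratio within each mouse, with a two-sided exact sign-flip permutation test and Benjamini-Hochberg adjustment over the 8 neighbouring pairs. The order came from the same 8 mice, so the tested values also fixed which pairs were tested and which gene came first. The smallest exact p that 8 mice allow is 0.0078. Of these steps, 4 passed. Actn3 exceeded Mybpc2 by a mean log2 ratio of 1.20 ± 0.03 (SE), or 2.29-fold, in 8 of 8 mice (adjusted exact p = 0.021). Mybpc2 exceeded Neb by 0.64 ± 0.19 (SE), or 1.56-fold, in 7 of 8 mice (adjusted exact p = 0.031). Neb exceeded Mybpc1 by 1.13 ± 0.14 (SE), or 2.19-fold, in 8 of 8 mice (adjusted exact p = 0.021). Ttn exceeded Myom3 by 4.50 ± 0.16 (SE), or 22.7-fold, in 8 of 8 mice (adjusted exact p = 0.021). The step from Mybpc2 to Neb was the least certain of the 4, since its log2 ratio ran from -0.015 to 1.58 between mice. Leaving out mouse 1, 2, 3, 5, 6, 7 or 8 gave adjusted exact p-values of 0.05 to 0.0625 for it, where the smallest exact p for 7 mice is 0.0156. The top of the order also depends on the length a count is divided by. With the longest annotated transcript, Mybpc2 over Neb no longer passed at a log2 ratio of 0.40 (adjusted exact p = 0.094). With the median length of coding transcripts, which holds many short partial models for Ttn and Neb, Mybpc2 over Neb turned to -1.71 and passed in that direction (adjusted exact p = 0.0089). Actn3 over Mybpc2 was 0.38 (adjusted exact p = 0.0089), so that Neb and Ttn came before Actn3.

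The middle of the order was not resolved. The log2 ratio was 0.06 ± 0.08 (SE) for Mybpc1 over Myom1 (adjusted exact p = 0.45), 0.25 ± 0.14 for Myom1 over Actn2 (adjusted exact p = 0.17), 0.18 ± 0.10 for Actn2 over Myom2 (adjusted exact p = 0.18) and 0.30 ± 0.13 for Myom2 over Ttn (adjusted exact p = 0.10). These steps depend on the length as well. With the longest annotated transcript, Mybpc1 over Myom1 turned to a log2 ratio of -0.62 (adjusted exact p = 0.010). Myom2 over Ttn was 0.98 and passed with the longest transcript (adjusted exact p = 0.010), but turned to -4.67 with the median length of coding transcripts (adjusted exact p = 0.0089). Myom1 over Actn2 passed with both lengths, at 0.81 (adjusted exact p = 0.010) and 0.84 (adjusted exact p = 0.0089). Actn2 over Myom2 turned to -0.29 and -0.25 with these lengths.

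Within each family the paralogs differed in every mouse, as did the giants Ttn and Neb, and all 5 ratios gave the smallest exact p possible (adjusted exact p = 0.0078 over the 5 ratios). Actn3 exceeded Actn2 per kb by a log2 ratio of 3.28 ± 0.23 (SE), or 9.72-fold, and the ratio ran from 4.38-fold in mouse 5 to 16.6-fold in mouse 2. Mybpc2 exceeded Mybpc1 by 1.78 ± 0.18 (SE), or 3.43-fold, with a range of 2.31-fold to 5.57-fold. Within both families the fast-type form was thus the higher, by an amount that differed between mice. Among the M-band genes, Myom2 stood at 0.744 of Myom1, with a log2 ratio of -0.43 ± 0.09 (SE), and exceeded Myom3 by 4.81 ± 0.09 (SE), or 28.0-fold. Ttn stood at 0.264 of Neb, with a log2 ratio of -1.92 ± 0.07 (SE), although it had more counts than Neb in 7 of 8 mice. With the median length of coding transcripts, this ratio turned to 0.68 and passed in that direction (adjusted exact p = 0.0078).

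**Figure D3:**
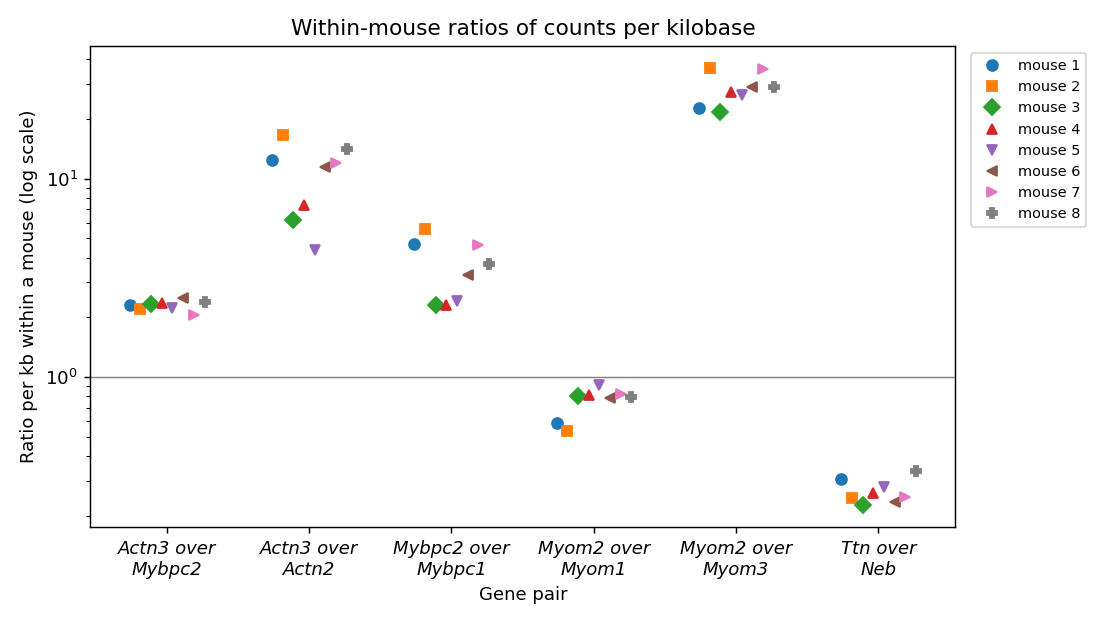
Ratio of normalized counts per kb within each mouse (log axis, grey line at 1) for 6 gene pairs (x axis), with a symbol per mouse. Actn3 over Mybpc2 keeps within 2.05 to 2.50 over the 8 mice, whereas Actn3 over Actn2 spreads from 4.38 to 16.6.

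How the genes varied from mouse to mouse was measured by Pearson's r of log2(normalized count + 1) across the 8 mice, with a two-sided exact permutation p over all pairings of the mice, for each gene against every gene that reached 10 counts in each library. Adjusted over all 136170 relations, 0 passed 0.05 (0%), and the lowest adjusted exact p was 0.24. The same held for the 36 pairs among the 9 genes, with 0 pairs passing and a lowest adjusted exact p of 0.25. At an unadjusted exact permutation p under 0.05, 9 of the 36 pairs remained, or 25%, all of them positive. Over all relations tested 9.36% reached that level in either direction and 4.6% with a positive r. The median r of the 36 pairs was 0.34, against -0.005 for all relations, and 30 of the 36 were above 0. Without mouse 1 the number of pairs at that level was 5.

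The pairs were sorted into 3 patterns after the values were seen. The first holds Actn3 and Mybpc2, the fast-type Z-disc and thick-filament genes. Across mice they gave r = 0.98 (exact permutation p = 7.4e-05, rho = 0.98, exact p = 0.0004, adjusted p = 0.25), and r was 0.95 without mice 3 and 4, the farthest from the median. The normalized count of Actn3 was between 1.65 and 2.01 times that of Mybpc2 in all 8 mice, although each gene varied over 2.4-fold. Both were lowest in mice 3 and 4 and highest in mice 1 and 2.

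All 4 adult myosin heavy chains were lowest in mouse 3 and highest in mouse 1. Of these, Myh4, the heavy chain of the fastest (type IIB) myosin, gave the highest r with Actn3 and with Mybpc2. Its normalized count had a median of 1495611, with 839797 in mouse 3 and 2063673 in mouse 1. It gave r = 0.96 with Actn3 (exact permutation p = 0.0002, rho = 0.93, exact p = 0.0022, adjusted p = 0.26, and r = 0.89 without mice 3 and 4). With Actn3, Myh1 gave r = 0.90, Myh2 0.79 and the slow form Myh7 0.61 (exact permutation p = 0.00045, 0.020 and 0.11, adjusted p = 0.28, 0.45 and 0.64). Without mice 3 and 4 these r values were 0.84, 0.39 and 0.18. The share of counts taken by the 10 most abundant genes also moved with Actn3 and Mybpc2, from 18.8% in mouse 3 to 26.2% in mouse 1. It is not a measure apart from Myh4. By mean normalized count Ttn ranked 7 and Neb 10 among all genes, and Myh4 had a higher mean than either, at 1461400. That share gave r = 0.96 with Actn3 (exact permutation p = 0.00025, rho = 0.93, exact p = 0.0022, and r = 0.88 without mice 3 and 4) and r = 0.98 with Mybpc2 (exact permutation p = 0.00012, rho = 0.98, exact p = 0.0004, and r = 0.95 without the same mice). Both passed an adjustment over the 135 relations of the 9 genes with 15 measures of the libraries and marker lists (adjusted exact p = 0.017 for each). The summed markers of skeletal muscle fibres gave r = 0.87 with Actn3 (exact permutation p = 0.0061, rho = 0.76, exact p = 0.037, adjusted p = 0.12, and r = 0.57 without mice 3 and 4) and r = 0.89 with Mybpc2 (exact permutation p = 0.0046, rho = 0.74, exact p = 0.046, adjusted p = 0.12, and r = 0.64 without the same mice). Macrophage markers, which summed to between 803 in mouse 8 and 1997 in mouse 4, gave r = -0.68 with Actn3 and r = -0.72 with Mybpc2 (exact permutation p = 0.062 and 0.045, rho = -0.76 and -0.74, adjusted p = 0.62 and 0.51, and r = -0.30 and -0.38 without mice 3 and 4). The list of skeletal muscle fibre markers was not split by fibre type, and its sum gave r = 0.19 with Ttn and -0.16 with Neb (exact permutation p = 0.64 and 0.72). These relations were looked at after the values had been seen. The part of library composition, of fibre type or of other cell types in the pattern was not tested.

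Myom1 lay between this pair and titin. With Mybpc2 it gave r = 0.82 (exact permutation p = 0.017, rho = 0.83, exact p = 0.015, adjusted p = 0.42) and with Actn3 r = 0.78 (exact permutation p = 0.026, rho = 0.79, exact p = 0.028, adjusted p = 0.47). Without mice 3 and 4 these values were 0.50 and 0.41, so the relations rest largely on those mice. With library totals in place of size factors they were 0.37 and 0.35, and with the trend of each library on transcript length and GC content removed they were 0.91 and 0.89. The share of counts in the 10 most abundant genes gave r = 0.88 with Myom1 (exact permutation p = 0.0055, rho = 0.86, exact p = 0.011, adjusted p = 0.12, and r = 0.67 without mice 3 and 4). Among the myosin heavy chains, Myom1 was most like Myh2, the type IIA form, with r = 0.98 (exact permutation p = 0.00012, rho = 0.93, exact p = 0.0022, adjusted p = 0.26, and r = 0.95 without mice 3 and 4). Myh2 had a median of 108750 normalized counts and ran from 78906 in mouse 3 to 153190 in mouse 1, the lowest and highest mice of Myom1.

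The second pattern holds Ttn and Neb, which gave r = 0.85 (exact permutation p = 0.0036, rho = 0.95, exact p = 0.0011, adjusted p = 0.34, and r = 0.90 without mice 1 and 3). Ttn also gave r = 0.82 with Myom1 (exact permutation p = 0.015, rho = 0.81, exact p = 0.022, adjusted p = 0.42), and 0.51 without mice 1 and 3. With the trend on transcript length and GC content removed it was 0.46 (exact permutation p = 0.26). Measures tied to the length of transcripts moved with both genes. Over the other 318 genes with a transcript of at least 10 kb, the median deviation from the gene mean was -0.29 on the log2 scale in mouse 8 and 0.14 in mouse 2. This measure of a library gave r = 0.91 with Neb (exact permutation p = 0.0052, rho = 0.86, exact p = 0.011, adjusted p = 0.12, and r = 0.72 without mice 3 and 8) and r = 0.75 with Ttn (exact permutation p = 0.029, rho = 0.83, exact p = 0.015, adjusted p = 0.37, and r = 0.94 without mice 1 and 3). When the trend of each library on transcript length and GC content was removed, the r of Ttn and Neb was 0.03 (exact permutation p = 0.95). Both genes lie at the long end of the trend that was removed.

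Tendon markers moved with the same genes. Their summed level gave r = 0.94 with Neb (exact permutation p = 0.0021, rho = 0.93, exact p = 0.0022, adjusted p = 0.094, and r = 0.87 without mice 3 and 8) and r = 0.81 with Ttn (exact permutation p = 0.014, rho = 0.90, exact p = 0.0046, adjusted p = 0.24, and r = 0.90 without mice 1 and 3). All 4 of these markers had at least 10 counts in every library. Their part in the relation of Ttn and Neb was not tested.

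The third pattern holds Actn2, Myom2, Myom3 and Mybpc1, all lowest in mouse 2 and highest in mouse 5. Myom3 and Mybpc1 gave r = 0.85 (exact permutation p = 0.0092, rho = 0.69, exact p = 0.069, adjusted p = 0.39), and Actn2 and Myom3 gave r = 0.82 (exact permutation p = 0.025, rho = 0.83, exact p = 0.015, adjusted p = 0.46). Actn2 and Mybpc1 gave r = 0.80 (exact permutation p = 0.016, rho = 0.52, exact p = 0.20, adjusted p = 0.42), and Myom2 and Mybpc1 gave r = 0.71 (exact permutation p = 0.045, rho = 0.69, exact p = 0.069, adjusted p = 0.52). The other pairs of the 6 did not reach that level. Actn2 and Myom2 gave r = 0.70 (exact permutation p = 0.057, rho = 0.55, exact p = 0.17, adjusted p = 0.55), with 0.48 without mice 1 and 5 and 0.33 without mouse 5. Myom2 with Myom3 gave r = 0.67 (exact permutation p = 0.069, rho = 0.43, exact p = 0.30, adjusted p = 0.57), and -0.52 without mice 2 and 5. Several of the r values fell when the mice farthest from the median were left out. Without mice 2 and 5, r was 0.39 for Myom3 with Mybpc1 and -0.03 for Myom2 with Mybpc1. Without mice 1 and 5, r was 0.29 for Actn2 with Mybpc1 but 0.84 for Actn2 with Myom3. With the trend on transcript length and GC content removed, r was 0.73 for Actn2 with Myom3 (exact permutation p = 0.078). It was 0.86 for Myom3 with Mybpc1, 0.72 for Actn2 with Mybpc1 and 0.73 for Myom2 with Mybpc1 (exact permutation p = 0.0055, 0.043 and 0.039). Mice 2 and 5 also stood at the ends of other measures. Mouse 5 had the most counts (33012497) and the highest summed blood markers, which ran from 4032 in mouse 8 to 15971 in mouse 5. Mouse 2 had the highest summed markers of fibroblasts (17618), endothelium (4679) and adipocytes (1898). Total counts gave r = 0.67 with Actn2 (exact permutation p = 0.090, rho = 0.76, exact p = 0.037, adjusted p = 0.62, and r = 0.23 without mice 1 and 5). The part of depth or of these cell types in the pattern was not tested.

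Relations between the other paralogs were also computed. Myom1 with Myom2 gave r = 0.28 (exact permutation p = 0.50, rho = 0.29, exact p = 0.50, adjusted p = 0.90, and r = 0.01 without mice 3 and 4), which was -0.049 with library totals. Myom1 with Myom3 gave r = 0.01 (exact permutation p = 0.98, rho = 0.05, exact p = 0.93, adjusted p = 0.997, and r = 0.22 without mice 3 and 4). Actn2 with Actn3 gave r = -0.17 (exact permutation p = 0.72, rho = -0.29, exact p = 0.50, adjusted p = 0.96, and r = -0.68 without mice 1 and 5), and 0.10 without mouse 5. Mybpc1 with Mybpc2 gave r = 0.04 (exact permutation p = 0.92, rho = 0.07, exact p = 0.88, adjusted p = 0.99, and r = 0.73 without mice 2 and 5), a value that turned to -0.62 with library totals. With 8 mice, neither a relation nor its absence could be shown for these pairs, and the differences between them were not tested. Among the myosin heavy chains Mybpc1 was most like Myh7, the slow form, with r = 0.82 (exact permutation p = 0.014, rho = 0.88, exact p = 0.0072, adjusted p = 0.41, and r = 0.95 without mice 2 and 5). Slow-fibre markers, which include Myh7, summed to between 7201 in mouse 3 and 17123 in mouse 1 and gave r = 0.79 with Mybpc1 (exact permutation p = 0.020, rho = 0.81, exact p = 0.022, adjusted p = 0.29, and r = 0.94 without mice 2 and 5). The heart markers gave r = 0.76 with it (exact permutation p = 0.030, rho = 0.88, exact p = 0.0072, adjusted p = 0.37, and r = 0.85 without the same mice), and the part of either list was not tested.

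**Figure D4:**
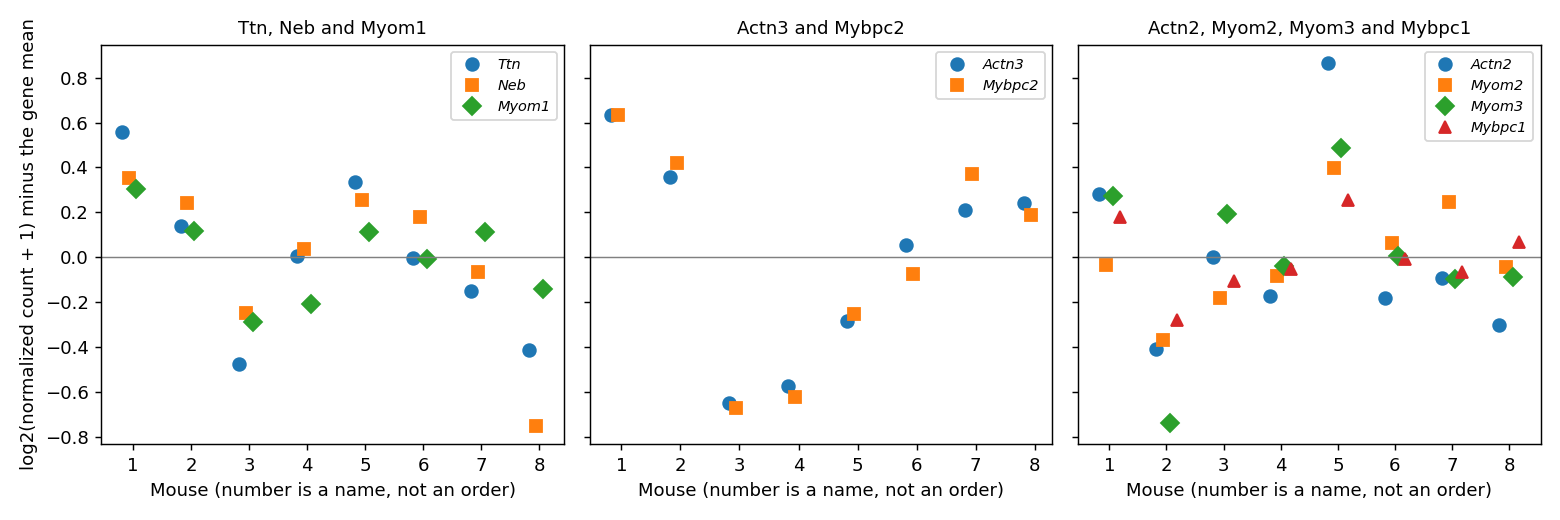
Deviation of log2(normalized count + 1) from the gene mean (y axis) in each mouse (x axis), with a symbol per gene, in panels grouped after the values were seen. Actn3 and Mybpc2 lie close together in every mouse, Neb is lowest in mouse 8, and Actn2, Myom2, Myom3 and Mybpc1 are all highest in mouse 5 and lowest in mouse 2.

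**Figure D5:**
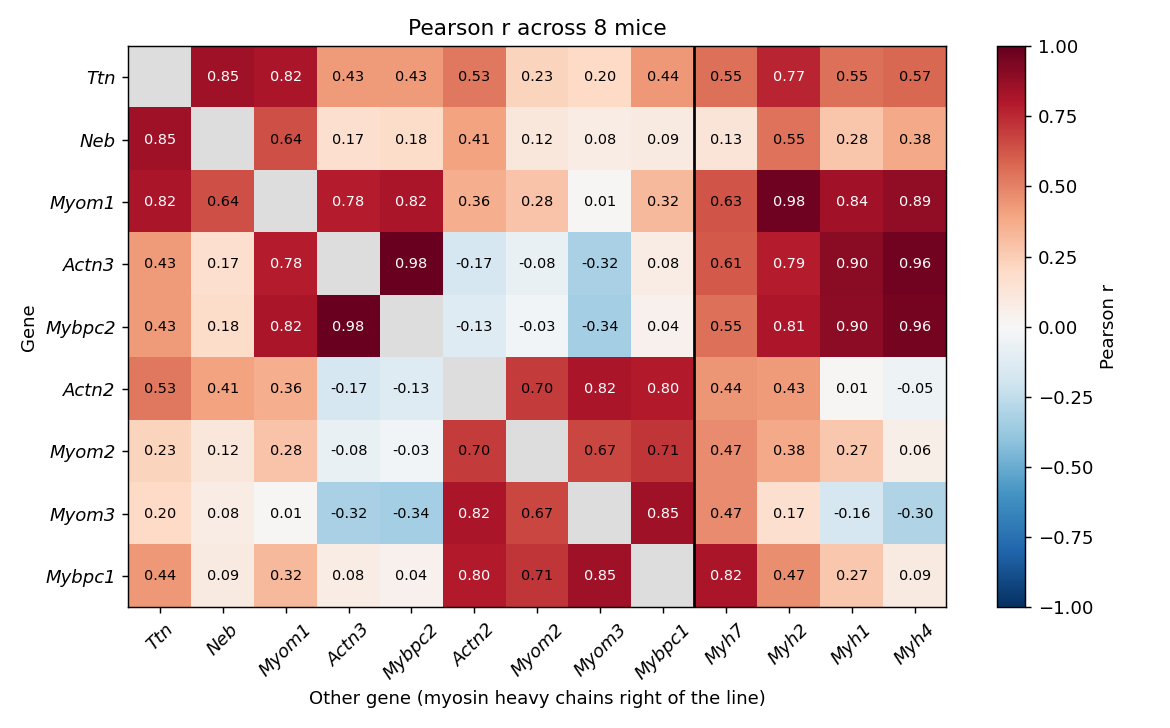
Pearson's r across the 8 mice (color and number, from -1 to 1) for each gene (rows) with the other genes and with 4 myosin heavy chains (columns, right of the line). The darkest cells are Actn3 with Mybpc2 at 0.98, Myom1 with Myh2 at 0.98 and Actn3 and Mybpc2 with Myh4 at 0.96.

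Sequences upstream of the start were compared for members whose promoter was listed in RefSeq (GRCm38.p6), which were Ttn, Actn2, Myom1, Myom3, Mybpc1 and Mybpc2. Shown are the 250 bases before the start of 3 genes of the third pattern, to be read side by side, and of Ttn, which belongs to another pattern and holds a MEF2 element as Myom3 does, 5′ to 3′ on the strand of the gene. Capitals mark E-boxes, the CANNTG motif that myogenic factors such as MyoD bind, and MEF2 elements, which were searched by their consensus on both strands.
Ttn: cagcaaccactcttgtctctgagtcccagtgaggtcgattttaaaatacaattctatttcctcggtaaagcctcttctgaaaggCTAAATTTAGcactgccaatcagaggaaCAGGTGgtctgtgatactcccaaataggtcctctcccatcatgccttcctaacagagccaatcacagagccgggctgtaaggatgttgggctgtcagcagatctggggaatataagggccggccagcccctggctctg
Actn2: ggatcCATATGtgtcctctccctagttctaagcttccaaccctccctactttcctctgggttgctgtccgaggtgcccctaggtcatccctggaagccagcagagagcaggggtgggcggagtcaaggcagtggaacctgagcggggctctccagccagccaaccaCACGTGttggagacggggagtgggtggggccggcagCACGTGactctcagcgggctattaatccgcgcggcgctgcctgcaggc
Myom3: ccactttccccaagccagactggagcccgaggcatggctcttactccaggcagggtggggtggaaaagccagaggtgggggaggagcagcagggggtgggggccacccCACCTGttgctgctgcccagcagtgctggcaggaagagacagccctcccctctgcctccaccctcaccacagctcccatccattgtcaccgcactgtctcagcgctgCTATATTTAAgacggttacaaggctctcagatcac
Mybpc1: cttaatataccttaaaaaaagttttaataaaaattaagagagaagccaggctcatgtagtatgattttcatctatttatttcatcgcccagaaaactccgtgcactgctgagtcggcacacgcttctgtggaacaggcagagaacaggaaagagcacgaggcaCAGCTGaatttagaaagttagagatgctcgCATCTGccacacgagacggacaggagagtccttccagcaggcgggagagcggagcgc
The starts are those of RefSeq and can differ from the gene bounds given above: the stretch of Actn2 reaches into the annotated gene, and the start listed for Myom1 lies inside it. They cover chr2:76982548-76982797 (minus strand) for Ttn, chr13:12340733-12340982 (minus strand) for Actn2, chr4:135759465-135759714 (plus strand) for Myom3 and chr10:88605153-88605402 (minus strand) for Mybpc1. A MEF2 element was found in Ttn, beginning 166 bases before the start, and in Myom3, beginning 35 bases before it. Of 32851 promoters of the same length, 2.92% held such an element. E-boxes were found in all 6 promoters, from 1 in Ttn, Myom3 and Mybpc2 to 3 in Actn2 and Myom1, and 66.2% of all promoters hold at least 1. The MCAT motif CATTCC, searched on both strands, was found in Mybpc2 only among the 6 and in 12.6% of all promoters. TATAAA was in none of the 6 and in 12.4% of all promoters. These are matches of letters and not measured binding sites.

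Other genes of the sarcomere, and ligases, proteases and assembly factors linked to it, were taken from a list of 34. Of these, 32 had at least 10 counts in every library. Of their 288 relations with the 9 genes, 36 were positive and 4 negative at an unadjusted exact permutation p under 0.05, or 13.9%, beside 9.36% for all relations, and 0 passed the adjustment. The 15 genes listed under the Z-disc, which included Actn1 and Actn4 of the cytoskeleton of many cell types, gave 15 positive relations and 1 negative of 135. The 7 genes of thin-filament ends and nebulin partners gave 9 positive and 2 negative of 63, and the 6 ligases, proteases and assembly factors gave 8 positive and 1 negative of 54. The 4 detected M-band and A-band genes, which included Mybph, gave 4 positive and 0 negative of 36. The median CV of the list was 20.1%, between those of the 9 genes and of all genes. Nebl, the nebulin relative best known from heart, was near the limit of use with a mean normalized count of 21.0 ± 4.26 (SD, n = 8).

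By the number of genes with an unadjusted exact permutation p under 0.05, Neb had the most relations with 2378 (15.7%), followed by Mybpc2 with 2216 (14.6%) and Actn3 with 2179 (14.4%). Mybpc1 had the fewest with 428 (2.83%), followed by Myom3 with 535 (3.54%) and Myom2 with 609 (4.02%). Leaving the 9 genes themselves out of the ranking, the genes most like Ttn were Pip4k2b, Klhl20 and Narf, with r of 0.96 to 0.97, and those most like Neb were Chd9, Scn4a and Sptb, with r of 0.98 to 0.99. Scn4a encodes the voltage-gated sodium channel of muscle and Sptb encodes beta-spectrin. For Actn3 they were Kctd15, Gm14698 and Styx at r = 0.97, and the last 2 were also the genes most like Mybpc2, followed by Eml1, at 0.98 to 0.99. For Myom1 they were Kif1c, Myh2 and Homer1, with r of 0.97 to 0.99. With the 2 most distant mice of each gene left out, these r values were at least 0.90.

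Within the pattern of mouse 5, the genes most like Actn2 were 2310002L09Rik, Klhdc3 and Camta1, with r of 0.97 to 0.98. Among those of Myom2 were Fzd9 and Gm1866, with r of 0.97 and 0.94, and those of Myom3 were Zdhhc23, Got2 and Plb1, with r of 0.95 to 0.97. Mybpc1 was most like Car14, Esrra and Myoz2, with r of 0.93 to 0.94. Myoz2 encodes a Z-disc protein of slow fibres, and Esrra encodes an orphan nuclear receptor of oxidative metabolism. These relations rest more on the outlying mice. Without mice 2 and 5, r of Myom3 was 0.78 with Zdhhc23, 0.76 with Got2 and 0.47 with Plb1, and r of Mybpc1 was 0.78 to 0.87 with its 3 genes. Without the same mice, r of Myom2 was 0.96 with Fzd9 and 0.77 with Gm1866. Without mice 1 and 5, r of Actn2 was between 0.79 and 0.91 with its 3 genes. As the adjusted exact p of the relations in both lists was between 0.24 and 0.33, the names describe the 8 libraries and were not told apart from the many other genes tested.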

How the data were processed

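RNA-seq of 8 muscle samples of 1 group was analysed. Per the labels and the study's methods, the authors checked reads with FastQC and fastp, mapped them to GRCm38.p6 with STAR, counted them per gene with summarizeOverlaps and scaled the counts with DESeq2. The annotation release, the use of strand and the handling of reads that match several genes are not given in the sources used here. The deposited values are a signal, namely counts divided by the size factor of each library. Whole reads were recovered for 100% of the values (tolerance 0.01 of a read) and were used for depth and count minimums. The 9 genes, the pathway and marker lists and the tests were chosen with earlier results of these data known.

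Of the gene identifiers, 55227 of 55487 matched GENCODE M21 on GRCm38, which gave symbols, positions and exon lengths, and 260 did not. With 1 condition no count test between groups could be made. Ratios within a mouse used a pseudocount of 1 and exact sign-flip tests. Correlations used exact permutation tests over the 15135 genes that reached 10 counts in each library, adjusted over all relations. Beside the members and their lists, the 4 adult myosin heavy chains and the 3 most alike genes of each member were named, except for genes that are not reported here. Alternatives were TMM factors (edgeR 4.0.16) and library totals, other lengths, pseudocounts of 0.5 and 5, count minimums, Spearman's rho, medians, removal of length and GC content trends, and leaving out each mouse. Relations of the 9 genes with library measures and marker sums were added after seeing the data. The tests were checked on simulated data. Totals of 23985356 to 33012497 counts per library left a counting CV of at most 3.02% for the 9 genes. The reads carry no molecular identifiers. The tools were R 4.3.3, pandas 2.3.3, scipy 1.17.1, numpy 2.4.6, matplotlib 3.10.9 and Python 3.11.15.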

Additional observations from a re-analysis of the deposited data

Results flagged for a closer look

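The normalized count of Actn2 was 38825 in mouse 5 (38824.5 before rounding), far from the next highest mouse at 25941 and from the lowest at 16052. The gap was 0.566 of the whole range, above Dixon's 95% critical value for 8 samples, and it was 0.555 with TMM factors and 0.577 with library totals. In all, 31 results were looked at in this way, of which chance would give 1.55 such values. The same mouse was highest for Myom2, Myom3 and Mybpc1.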

How the results depend on the processing

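Of 599 recomputed values, 571 kept their direction and their side of the threshold or moved less than the spread between mice. This count says nothing about the stability of r, since no adjusted p of a member pair was under 0.05 in any setting. With the longest transcript, the log2 ratio was -0.29 for Actn2 over Myom2, -0.62 for Mybpc1 over Myom1, 0.40 for Mybpc2 over Neb (no longer passing), 0.81 for Myom1 over Actn2 and 0.98 for Myom2 over Ttn (both now passing). With the median coding transcript it was -0.25 for Actn2 over Myom2, -0.23 for Mybpc1 over Myom1, -1.71 for Mybpc2 over Neb, 0.84 for Myom1 over Actn2 (now passing), -4.67 for Myom2 over Ttn and 0.68 for Ttn over Neb. Those medians are taken over many short partial transcripts, and come to 2130 bases for Ttn. Apart from Actn2 over Myom2, every ratio that changed sign with either length passed in its new direction (adjusted exact p of 0.0078 to 0.010). Leaving out 1 mouse gave 0.51 to 0.74 for Mybpc2 over Neb, a CV of 16.3% to 36.0% for Actn2 and of 13.998% to 23.6% for Neb, and 5 to 10 member pairs with an unadjusted exact p under 0.05. It also gave r of -0.41 to 0.10 for Actn2 with Actn3 and of -0.25 to 0.40 for Mybpc1 with Mybpc2 (-0.25, -0.12 and -0.03 without mouse 1, 3 or 4). With length and GC content trends removed, r of Ttn with Neb was 0.03 in place of 0.85. With library totals, r was -0.62 for Mybpc1 with Mybpc2 and -0.049 for Myom1 with Myom2 (0.04 and 0.28 with size factors), and the CV of Myom1 was 7.07%. The cause of these shifts was not tested, except that a length enters each ratio by construction. No paired analysis was possible because the 8 mice form a single group with no second condition to pair with, and the ratios within a mouse pair genes and not conditions. With 8 mice and adjustment over 136170 relations, the smallest exact p that the pairings allow is 2.5e-05.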
